A study of Mus musculus with 3 samples.

Results

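Among macrophages of the mouse stomach muscle, 70 cell barcodes carried RNA of Gpnmb or Spp1 above a fixed minimum, and they are described here. A barcode was a member when it had at least 1000 UMIs (unique molecular identifiers, each a counted RNA molecule), at most 15% mitochondrial UMIs, at least 5 UMIs of the complement genes C1qa, C1qb and C1qc together, and at least 3 UMIs of Gpnmb and Spp1 together. Of the 5735 barcodes in 3 libraries, 3430 passed the depth and mitochondrial limits and 1972 of those passed the C1q minimum. Members numbered 10, 35 and 25 in replicates 1, 2 and 3, and were set against the 187, 868 and 705 C1q barcodes (1760 in all) that had no UMI of either gene, called barcodes without Gpnmb and Spp1. A further 142 C1q barcodes with 1 or 2 UMIs entered neither class. The members were chosen by their Gpnmb, Spp1 and C1q UMIs, so the levels of these genes are a description and support nothing.

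All 3 libraries belong to the group NonDiabetic: cells sorted for CD45, a surface protein of leukocytes, out of dissociated gastric muscle from female mice of the strain C57bl/6. Neither the age of the mice nor any treatment stands in the labels, and diabetic mice were not analysed here. Nothing in the labels ties a library to an animal of its own, so p-values speak only of the spread among 3 libraries, which may be technical. Both classes came from the same libraries, and no conditions were compared.

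Gpnmb is a transmembrane glycoprotein of lysosomes and the cell surface, which macrophages make when their lysosomes are loaded with lipid or debris and which transcription factors of the MiT/TFE family control. Spp1, or osteopontin, is a secreted phosphoprotein that binds integrins and Cd44 on neighbouring cells and is made by macrophages in injured or lipid-rich tissue. Both genes are often listed with Trem2, Cd9, Fabp5 and Lgals3 as markers of lipid-associated macrophages. Resident macrophages of many tissues carry Timd4, Lyve1 or Folr2, a receptor for dying cells, a hyaluronan receptor and a folate receptor.

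The promoters of the genes that carry the account are shown because Gpnmb is a known target of the MiT/TFE factors. Each window runs from 250 bases before a gene's start to 30 bases after it, read 5′ to 3′ on the gene's strand, from RefSeq on build GRCm38.p6, and capitals mark the only motif of those searched that it held. Gpnmb lies on the plus strand of chromosome 6 (window chr6:49036268-49036547), Spp1 on the plus strand of chromosome 5 (window of the upstream start, chr5:104434861-104435140) and Itgax on the plus strand of chromosome 7 (window chr7:128129300-128129579).
Gpnmb: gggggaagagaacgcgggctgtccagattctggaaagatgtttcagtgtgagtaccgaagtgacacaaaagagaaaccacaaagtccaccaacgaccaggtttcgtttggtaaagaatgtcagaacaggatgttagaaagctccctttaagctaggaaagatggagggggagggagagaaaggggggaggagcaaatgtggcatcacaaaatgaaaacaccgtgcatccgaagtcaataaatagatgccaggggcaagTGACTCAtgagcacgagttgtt
Spp1: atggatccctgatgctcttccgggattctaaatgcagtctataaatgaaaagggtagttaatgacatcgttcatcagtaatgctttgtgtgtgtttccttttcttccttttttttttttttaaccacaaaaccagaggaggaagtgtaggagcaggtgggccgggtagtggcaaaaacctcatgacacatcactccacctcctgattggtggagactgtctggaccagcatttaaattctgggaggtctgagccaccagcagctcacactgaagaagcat
Itgax: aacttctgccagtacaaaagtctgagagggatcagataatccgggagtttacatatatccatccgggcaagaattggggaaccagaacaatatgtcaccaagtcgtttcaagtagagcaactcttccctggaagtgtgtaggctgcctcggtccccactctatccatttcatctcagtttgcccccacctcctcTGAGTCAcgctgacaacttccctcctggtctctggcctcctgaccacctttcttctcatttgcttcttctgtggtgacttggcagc
The MiT/TFE motifs CACGTG, TCACGTGA (which contains CACGTG) and TCACATGA were searched on both strands of the full windows of 300 bases, 50 of them after the start. They occurred in 7.15%, 0.974% and 0.986% of 32851 mouse promoters. None was in the window of Gpnmb or in the windows of either Spp1 start. Of the lysosome genes that were higher in members, Atp6v0e held TCACGTGA and Ctss held TCACATGA, while Ctsz and Lyz2 held none. TGACTCA, the usual motif of the AP-1 factors, was in 5.20% of promoters; it was added after values had been seen, as were the windows of Cd9, Syngr1, Itgax, Lgals3 and Trem2. Gpnmb held TGACTCA just after its start and Itgax held its reverse complement TGAGTCA 56 bases before its start, which is why Itgax is printed. Cd9, Syngr1, Lgals3 and Trem2 held no motif of the 4. A match is a string of letters and not a bound site.

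The libraries held 6777422, 13336484 and 11017170 UMIs in 881, 2839 and 2015 barcodes. Replicates 2 and 3 shared 33 barcode sequences, replicates 1 and 3 shared 1, and replicates 1 and 2 shared none. Among them were 3 members, all of replicate 2, and 11 barcodes without Gpnmb and Spp1. A doublet score marked 1 member and 30 barcodes without Gpnmb and Spp1. Members were deeper than the comparison barcodes, with a median of 16702 UMIs (2729 to 44891) against 6905 (1001 to 35436). A deeper barcode reaches 3 UMIs more easily, so the gate itself selects for depth. C1q UMIs per 10000 UMIs were nearer, with medians of 94.1 and 86.0. All 12 macrophage genes of a fixed list, among them Csf1r, Adgre1, Mertk and Cd68, had UMIs in the members. Their summed level was 10974 to 17285 CPM (UMIs per 1000000) in members and 10604 to 13737 CPM in the comparison barcodes. Lyz2 was a large part of this sum. The label macrophage rests on the C1q gate together with these markers.

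Members were a small share of C1q barcodes in every library. The share was 4.59% in replicate 1 (exact Clopper-Pearson 95% interval 2.22 to 8.27%), 3.55% in replicate 2 (2.48 to 4.90%) and 3.26% in replicate 3 (2.12 to 4.77%), a mean of 3.80% ± 0.70 (SD, n = 3 libraries). The 3 intervals overlap, and they cover counting error only. Just outside the threshold stood 34 barcodes with 2 UMIs of Gpnmb and Spp1 and a median depth of 12877.5 UMIs. Just inside it stood 14 with 3 UMIs and a median depth of 14872 UMIs. Among barcodes thinned to 5000 UMIs before gating, 25 of 1216 were members, a mean share of 2.62% ± 1.496 (SD, n = 3).

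Most members had UMIs of only 1 of the 2 genes. Spp1 without any Gpnmb was found in 49 members, Gpnmb without any Spp1 in 12, and both in 9, of which 1 had at least 3 UMIs of each gene. Gpnmb was thus found in 21 members, and 9 of these also had Spp1. Members with more Spp1 than Gpnmb UMIs, called Spp1-led, numbered 54, Gpnmb-led members numbered 15, and 1 was tied. Spp1 UMIs totalled 128, 287 and 135 in the members of replicates 1, 2 and 3, and Gpnmb UMIs 38, 44 and 143. In CPM, Spp1 was at 588, 469 and 350 and Gpnmb at 174, 71.9 and 370. Spp1 was therefore the larger part in replicates 1 and 2, and Gpnmb was slightly above it in replicate 3. Replicate 3 held 10 of the 15 Gpnmb-led members, against 2 in replicate 1 and 3 in replicate 2. The highest single barcodes carried 54 UMIs of Spp1 (replicate 1) and 55 UMIs of Gpnmb (replicate 3). Since the gate takes the sum of both genes, a barcode with little of the first needs more of the second. These counts therefore do not show whether the genes occur apart, and the overlap was not tested.

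**Figure D1:**
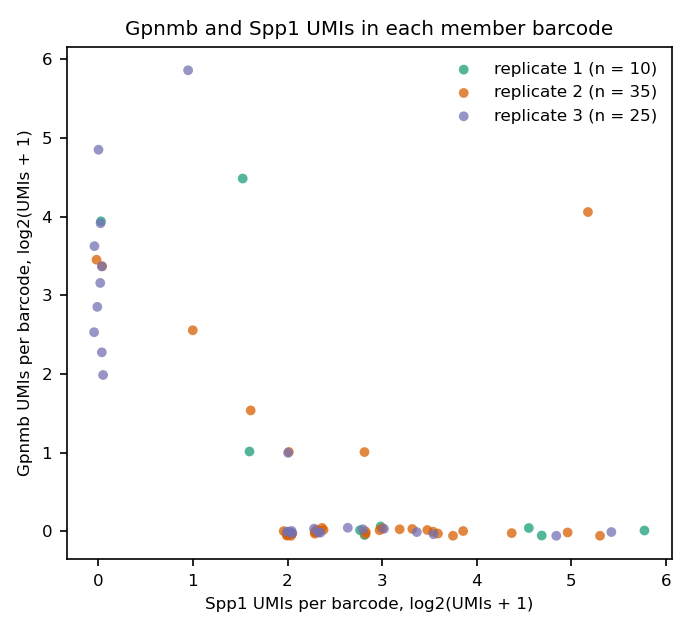
Gpnmb UMIs (y axis) against Spp1 UMIs (x axis) of each of the 70 members, both as log2(UMIs + 1), coloured by replicate, with points shifted slightly so that equal values can be seen. Most points lie along either axis, since 49 members had Spp1 alone and 12 had Gpnmb alone.

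Gpnmb was nearly limited to C1q barcodes, and Spp1 less so. Of the Gpnmb UMIs in all barcodes that passed the depth and mitochondrial limits, 94.8% (239 of 252) were in C1q barcodes, against 74.5% (712 of 956) of the Spp1 UMIs. Outside the C1q gate, 31 barcodes had at least 3 UMIs of both genes together, and 30 of those were Spp1-led. Their median was 111 UMIs of a monocyte list and 24 UMIs of a conventional dendritic cell list. All 31 had at least 10 UMIs of the monocyte list, among them the 6 that fell into a class of 530 barcodes with lymphocyte genes. In that class 3.02% had any UMI and 1.13% at least 3, at a median depth of 7191.5 UMIs, and with monocyte genes in it the class is no measure of free RNA in the droplets. The part of free RNA in the members' UMIs was not tested.

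Against barcodes without Gpnmb and Spp1, members were higher in 15 of 27 tested genes of lipid-associated macrophages, 7 of 24 of glycolysis and the hypoxia response and 10 of 31 of the respiratory chain, and lower in 18 of 22 genes of the resident Timd4, Lyve1 and Folr2 programme. Counts were summed per library and class and compared by edgeR's quasi-likelihood test (two-sided), the library as a block, with Benjamini-Hochberg adjustment over all genes. Gpnmb, Spp1, the C1q genes and mitochondrial genes had been taken out. A gene nearly absent from 1 class passed the filter on low counts only through the other class, so its call adds no support. Among the genes described below this holds for Timd4, Cd209b, C4b, Cd55, Ccl8, Mmp9, Colec12, Egfr and Etv1, all lower in members. Of 7833 genes tested, 255 (3.26%) were called higher and 178 (2.27%) lower at an adjusted p under 0.05, 5.53% in either direction. In 22.9% of genes (1790) the 3 values of the members did not overlap the 3 values of the comparison. The calls leaned on single libraries: without replicate 3 there were 47 higher and 82 lower, without replicate 2 there were 97 and 78, and without replicate 1 there were 424 and 329. With no replicate block they were 25 and 56. Of 100 called genes named by a rule, 46 lost their call without replicate 3 (edgeR adjusted p 0.0561 to 0.412) and 36 without replicate 2 (0.0504 to 0.308). Genes described below that were lost without replicate 3 include Abcg1, Adam8, Atp5e, Atp6v0e, Ccl7, Ccl12, Cd55, Cd74, Cfp, Ctss, Ctsz, Egr1, Fth1, Ftl1, Gapdh, H2afz, Itgal, Itgav, Itgb5, Kitl, Klf4, Klf6, Lyz2, Mmp14, Msrb1, Ndufb8, Pdgfc, S100a4, S100a6, Tgfbr1, Tgfbr2, Havcr2 and Ighm. Genes lost without replicate 2 but not without replicate 3 include Egfr, Hbegf, Hmox1 and Klf2. Ube2c was lost without replicate 2 and could not be tested without replicate 3, and Itgal was also lost without replicate 1 (0.0763).

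The make-up and the depth of the classes moved with this result. No UMI of Timd4, Lyve1 or Folr2 was found in 42 of 70 members, and in 86 of 187, 306 of 868 and 255 of 705 comparison barcodes. When only barcodes without such UMIs were compared, in replicates 2 and 3 (replicate 1 had 6 members left, too few to be summed), 8 genes (0.103%) were higher and 5 (0.0643%) lower. All C1q barcodes of replicates 2 and 3 gave 424 higher and 329 lower. When each barcode was thinned to 1000 UMIs, 1848 genes could be tested, with 7 higher and 21 lower. The part of subset mix and of depth in the result was not tested.

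Genes of lipid-associated macrophages made up the list with the most genes called higher, where 3.26% of all genes were called higher. Of 27 tested genes of that list, 15 were higher and none lower, with a median log2 fold change of 0.98 against -0.01 over all genes. In the fit of barcodes without Timd4, Lyve1 or Folr2 UMIs that median was 0.50, with 3 genes called. Cd9, a tetraspanin of the cell surface, was at 698, 413 and 570 CPM in the members of replicates 1, 2 and 3 and at 149, 83.6 and 79.2 CPM in the comparison barcodes. Each member value was above each comparison value, and the fitted difference was 6.06-fold (log2 2.60 ± 0.21 SE, edgeR adjusted p = 0.000485). Lgals3, a secreted galectin of activated macrophages, was at 1602, 2216 and 1982 CPM against 524, 460 and 356 CPM, also without overlap (log2 2.26 ± 0.22 SE, edgeR adjusted p = 0.00117). Such separation, in either direction, was found in 22.9% of all genes tested, so alone it says little.

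Itgax, the integrin chain known as Cd11c, was at 211, 84.98 and 114 CPM in members and at 42.2, 14.7 and 15.0 CPM in the comparison, 6.61-fold higher (edgeR adjusted p = 0.000609). Its 3 member values were all above its 3 comparison values, with replicate 1 the highest in each class. The classes were so separated, up or down, in 22.9% of all genes. Syngr1, a vesicle membrane protein, was sparse, with 31 UMIs in 14 members and 18 UMIs in all comparison barcodes. Its level was 27.6, 19.6 and 33.7 CPM against 0.650, 1.21 and 1.79 CPM (log2 4.42 ± 0.50 SE, edgeR adjusted p = 0.00261).

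Trem2, a lipid-sensing receptor, was at 331, 453 and 347 CPM in members and at 107, 155 and 208 CPM in the comparison, 2.70-fold higher (edgeR adjusted p = 0.00675). Fabp5, a fatty acid carrier, was at 170, 147 and 88.1 CPM against 22.1, 21.6 and 14.8 CPM (log2 2.89 ± 0.20 SE, edgeR adjusted p = 0.000195). For both genes the classes did not overlap, nor did they in 22.9% of all genes tested. Fabp4, a related carrier, was called higher at log2 3.27 (edgeR adjusted p = 0.0101), but 35.5% of its member UMIs came from 1 barcode and replicate 3 was at 5.18 CPM against 6.97. Also called were Lpl, a lipoprotein lipase (log2 1.28), Capg, an actin-capping protein (log2 1.37), and the elastase Mmp12 (log2 1.83). Apoe, a lipid carrier, was not called: it was at 7650, 4139 and 17912 CPM in members and at 5489, 7782 and 11296 CPM in the comparison (log2 0.22 ± 0.26 SE, edgeR adjusted p = 0.666).

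**Figure D2:**
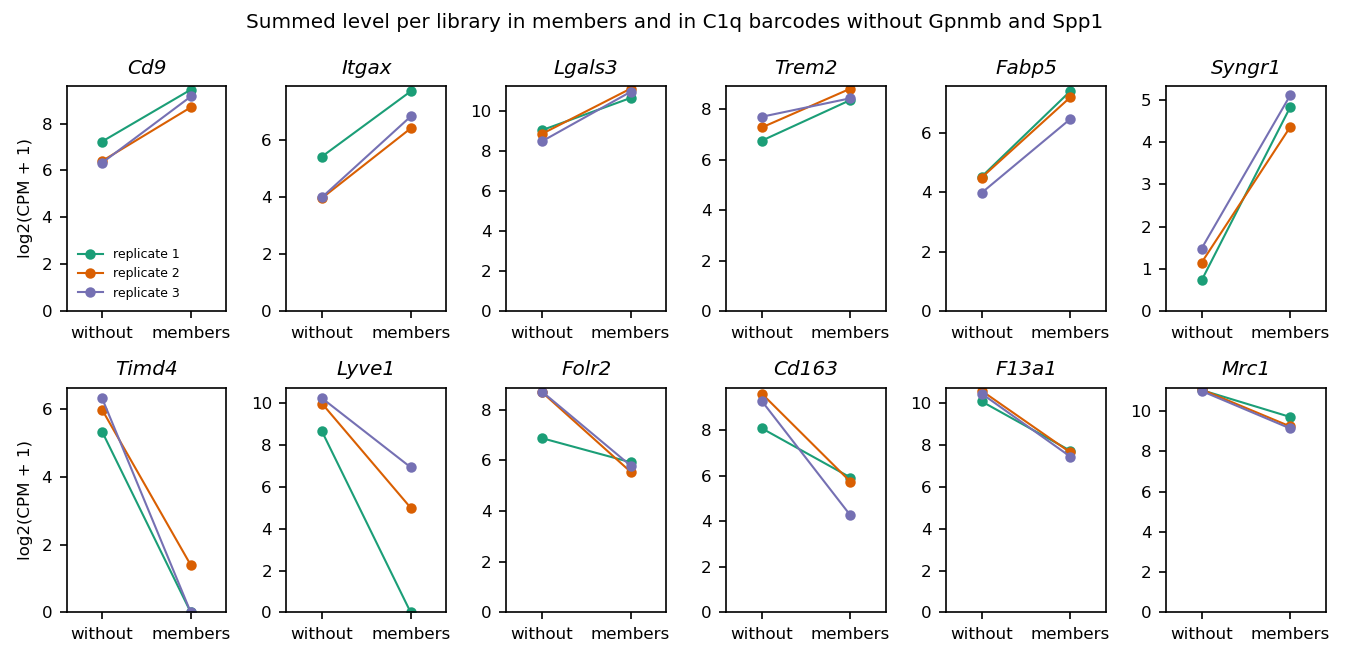
Summed level of 12 genes, as log2(CPM + 1) on the y axis, in barcodes without Gpnmb and Spp1 (left) and in members (right), with a line for each of the 3 libraries. All lines of Cd9, Itgax, Lgals3, Trem2, Fabp5 and Syngr1 go up and all lines of Timd4, Lyve1, Folr2, Cd163, F13a1 and Mrc1 go down; the genes were chosen after their values were seen.

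The resident programme stood the other way, where 2.27% of all genes were called lower. Of 22 tested genes of that list, 18 were lower and none higher, with a median log2 fold change of -3.07, the same when a gene with no UMI in members is set at its bound. In the fit of barcodes without Timd4, Lyve1 or Folr2 UMIs, a choice that uses genes of this list, the median of the 16 genes tested was -1.46, with 3 called. Timd4 was at 0, 1.63 and 0 CPM in members, a single UMI, against 39.6, 62.6 and 79.5 CPM (log2 -6.04 ± 0.59 SE, edgeR adjusted p = 0.00135). Timd4 and some other genes of the 18 passed the filter on low counts only through the comparison barcodes, so their calls add no support. Lyve1 was at 0, 31.0 and 122 CPM in members against 402, 1016 and 1212 CPM, and Folr2 at 59.7, 45.8 and 54.4 CPM against 116, 412 and 419 CPM. The classes overlapped in none of the 3 genes, nor did they in 22.9% of all genes tested. Cd209b, a lectin of resident macrophages, had no UMI in members and 623 in the comparison, at least 19.8-fold lower in members when 3 UMIs are allowed over the class.

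Cbr2, a carbonyl reductase, was at 32.1, 84.98 and 57.0 CPM in members against 377, 782 and 828 CPM (log2 -3.35 ± 0.21 SE, edgeR adjusted p = 0.000156). F13a1, a coagulation factor chain of tissue macrophages, was at 211, 199 and 174 CPM against 1088, 1548 and 1408 CPM (log2 -2.66 ± 0.17 SE, edgeR adjusted p = 0.000156). Mrc1, the mannose receptor, remained abundant in members at 831, 600 and 559 CPM but was below the 2102, 2146 and 2039 CPM of the comparison (log2 -1.55, edgeR adjusted p = 0.00117). Cd163, the haemoglobin scavenger receptor, was at 59.7, 52.3 and 18.1 CPM against 270, 779 and 622 CPM (log2 -3.61, edgeR adjusted p = 0.0022). Of 10 tested genes of the complement list, 4 were lower, among them C4b, Cfp and the complement inhibitor Cd55, and Itgax was its higher gene. The shares over all genes were 2.27% lower and 3.26% higher.

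Some genes of both patterns were also called among barcodes with no UMI of Timd4, Lyve1 or Folr2. Members were deeper there too, with medians of 21274, 16979 and 14249 UMIs against 9109.5, 3168 and 7590 in replicates 1, 2 and 3, and a shallow barcode with no UMI of a gene may still express it. The part of this depth gap was not tested. There, Cd9 was at 628, 437 and 438 CPM in members and at 153, 162 and 167 CPM in the comparison, and was called in the fit of replicates 2 and 3 (log2 1.46, edgeR adjusted p = 0.0187). Itgax was at 295, 115 and 110 CPM against 37.9, 31.5 and 35.2 CPM (log2 1.81, edgeR adjusted p = 0.0343). Syngr1 was at 15.1, 13.7 and 47.6 CPM against 0, 0.516 and 1.02 CPM (log2 5.14, edgeR adjusted p = 0.033). It rests on few UMIs, and here as over all C1q barcodes it passed the filter on low counts only through the members. Its call therefore adds no support. Cd9 and Itgax were higher in members in each library under this restriction too.

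F13a1 was lower there at 75.7, 49.1 and 42.9 CPM against 350, 389 and 262 CPM (log2 -2.78, edgeR adjusted p = 0.000676). Cd163 (log2 -4.01) and Ccl24, an eosinophil chemokine (log2 -5.17), were lower as well. Fn1, the matrix protein fibronectin, was at 721, 418 and 233 CPM in all members against 599, 265 and 121 CPM (log2 0.75, edgeR adjusted p = 0.0631), and turned to log2 -2.20 (edgeR adjusted p = 0.0263) in the restricted fit. Cd72, Mmp13, Pclaf, Cpd and Apol7c were also called higher there, named after their values were seen. Lgals3 was at log2 1.09, against 2.26 over all C1q barcodes, and was not called (edgeR adjusted p = 0.0724), Trem2 was at 0.58 (0.83) and Fabp5 at 0.17 (0.981).

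In a further restriction, chosen after the values were seen, barcodes also needed at least 20 C1q UMIs and sums at least 5 barcodes, so that all 3 libraries entered. Of 5673 genes, 3 (0.0529%) were higher, Cd9, Itgax and Mmp13, and 2 (0.0353%) lower, F13a1 and Ccl24. Cd9 stood at log2 1.72 (edgeR adjusted p = 0.0138), Itgax at log2 2.24 (edgeR adjusted p = 0.0138) and F13a1 at log2 -2.47 (edgeR adjusted p = 0.00677).

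**Figure D3:**
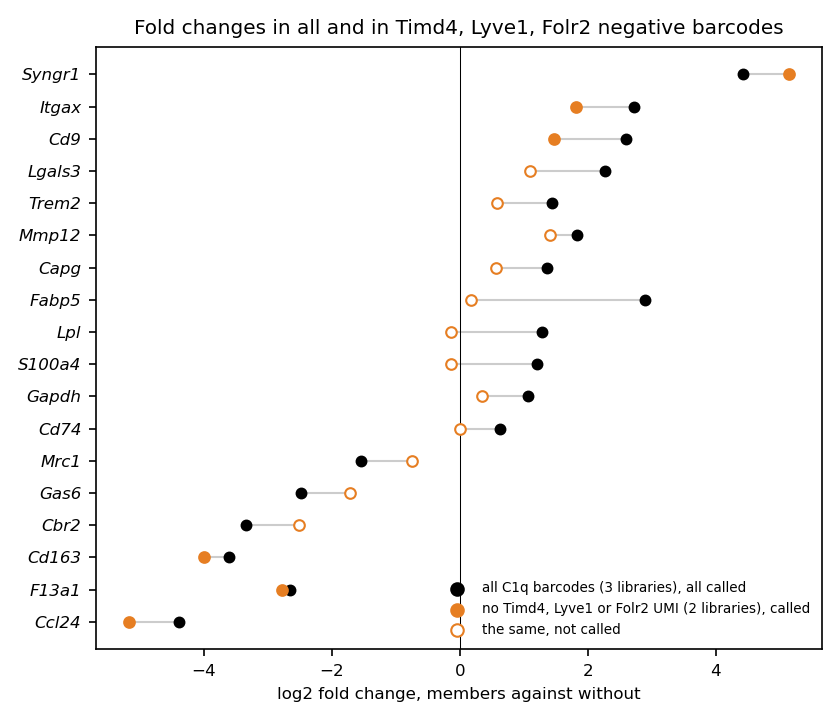
Log2 fold change of members against barcodes without Gpnmb and Spp1 (x axis) for 18 genes called over all C1q barcodes (black), and in barcodes with no UMI of Timd4, Lyve1 or Folr2 in replicates 2 and 3 (orange, filled where called). Syngr1, Itgax, Cd9, Cd163, F13a1 and Ccl24 are filled in orange, while Fabp5, Lpl, S100a4 and Cd74 lie near 0; the genes were chosen after their values were seen.

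Of the 15 tested partners of both proteins (receptors, proteases and bound matrix proteins), 2 were higher and 1 lower. Over all genes 3.26% were called higher and 2.27% lower, and counts this small are not read as a result. Itgav, the integrin chain alpha v that binds osteopontin, was at 184, 113 and 122 CPM in members against 104, 79.2 and 64.9 CPM (log2 0.87 ± 0.19 SE, edgeR adjusted p = 0.0338). Itgb5, its beta chain partner, was at 197, 88.2 and 184 CPM against 107, 60.9 and 99.0 CPM, and here the classes overlapped across libraries although each library moved up (log2 0.91, edgeR adjusted p = 0.0286). Cd44, the other main osteopontin receptor, was at 583, 683 and 632 CPM against 608, 413 and 279.5 CPM and was not called (log2 0.76 ± 0.25 SE, edgeR adjusted p = 0.114). Mmp9, a gelatinase that cleaves osteopontin, was the lower gene, with 6 UMIs in members (log2 -4.05, edgeR adjusted p = 0.00241). It passed the filter on low counts only through the comparison barcodes, so its call adds no support. Adam10 and Adam17, proteases that shed surface proteins, were not called, with log2 fold changes of 0.32 and 0.34.

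Other matrix enzymes were higher. Mmp12 was at 491, 211 and 148 CPM in members against 280, 36.0 and 44.0 CPM (edgeR adjusted p = 0.0182). Its classes overlapped across libraries although each library moved up. Mmp14, a membrane-bound collagenase, was at 55.1, 32.7 and 98.4 CPM against 18.2, 14.7 and 13.9 CPM (log2 2.09, edgeR adjusted p = 0.0198). Its classes did not overlap, nor did those of 22.9% of all genes. Of 19 tested genes of matrix remodelling, 3 were higher, with Adam8 as the third, and 2 lower, Mmp9 and Pdgfc. The shares over all genes were 3.26% higher and 2.27% lower. Acp5, the acid phosphatase of osteoclasts, was at 138, 13.1 and 549 CPM against 29.2, 22.1 and 15.2 CPM. It was not called (edgeR adjusted p = 0.104) and was lower in members of replicate 2. The summed list of 11 osteoclast markers was at 464, 106 and 746 CPM in members and 309, 240 and 274 CPM in the comparison. Of its 5 tested genes only Mmp9 was called. Calcr, Oscar and Itgb3 had no UMI in members, and 2 genes of the list had none in the comparison.

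A few lysosomal genes were called higher. Over all genes 3.26% were called higher and 2.27% lower. Of 28 tested cathepsins and hydrolases, 4 were higher and none lower, with a median log2 fold change of 0.07. Among them were Lyz2, a lysozyme (log2 0.83), and Ctsz and Ctss, cathepsins (log2 0.77 and 0.69). Of 21 tested genes of the lysosomal membrane and proton pump, Atp6v0e, a pump subunit, was higher (log2 0.80, edgeR adjusted p = 0.0313). None of 17 tested genes of the MiT/TFE factors and autophagy was called in edgeR (5 at an unadjusted p under 0.05, 0 called in DESeq2), with a median of -0.23. Over all genes 5.53% were called, and 0 of 17 is near that share. An unadjusted p under 0.05 was found for 1796 of all 7833 genes. Mitf, a member of the MiT/TFE family, was at log2 0.43 ± 0.23 (SE, edgeR adjusted p = 0.301). Of 22 tested genes of cholesterol handling, Abcg1, a cholesterol exporter, was higher at 110, 34.3 and 54.4 CPM against 32.5, 17.1 and 21.98 CPM (log2 1.49, edgeR adjusted p = 0.0168).

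Some genes of energy metabolism were called higher, by smaller amounts. The share called higher over all genes was 3.26%. Of 24 tested genes of glycolysis and the hypoxia response, 7 were higher and none lower, with a median of 0.54. Gapdh was at 955, 932 and 953 CPM in members and 483, 485 and 533 CPM in the comparison (log2 1.06 ± 0.14 SE, edgeR adjusted p = 0.00689), and the enolase Eno1 was at log2 1.23. Of 31 nuclear-encoded subunits of the respiratory chain, 10 were higher and none lower, with a median of 0.64. Ndufb8, of complex I, was at log2 0.96 and Atp5e, of the ATP synthase, at log2 0.89. In the fit without Timd4, Lyve1 or Folr2 UMIs these medians were 0.11 and 0.30, with no gene of either list called.

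Monocyte genes were partly higher, where 3.26% of all genes were called higher. Of 15 tested, 4 were higher, the calcium-binding S100a4 (log2 1.20) and S100a6 (log2 0.98), Msrb1, a methionine sulfoxide reductase (log2 1.33), and the integrin chain Itgal (log2 1.90). The list's median was 0.76, and it was -0.14 in the fit of barcodes without Timd4, Lyve1 or Folr2 UMIs. The 1 gene of the list called in that fit was none of these 4. S100a4 and S100a6 were at log2 -0.14 and -0.037 there. The summed monocyte list was at 4699 to 6630 CPM in members and 3209 to 5248 CPM in the comparison. Ccr2, the chemokine receptor of monocytes, was not called, at 721, 433 and 230 CPM against 990, 216 and 244 CPM (edgeR adjusted p = 0.562), being lower in members of replicates 1 and 3. Of 13 genes of MHC class II presentation, Cd74, the invariant chain, and Ctss were higher, at log2 0.62 and 0.69. H2-Ab1, a class II beta chain, was at log2 0.49 ± 0.17 SE (edgeR adjusted p = 0.124).

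Inflammatory genes differed widely between libraries. None of 16 tested pro-inflammatory genes was called in edgeR (4 at an unadjusted p under 0.05, 0 called in DESeq2). For a list this short that is near the 5.53% called over all genes. An unadjusted p under 0.05 was found for 1796 of all 7833 genes. Il1b was at 101, 3008 and 1425 CPM in members and 1064, 1900 and 544 CPM in the comparison, lower in members of replicate 1 and higher in the other 2 libraries (log2 0.08 ± 0.77 SE, edgeR adjusted p = 0.971). Of 16 tested chemokines, 4 were lower: Ccl8, Ccl24, Ccl12 and Ccl7. Ccl8 had 7 UMIs in members against 5015 (log2 -5.76, edgeR adjusted p = 0.000156). It passed the filter on low counts only through the comparison barcodes, so its call adds no support. Il1rn, the interleukin 1 receptor antagonist, was higher, at 358, 292 and 482 CPM against 59.8, 142 and 26.8 CPM (log2 2.70, edgeR adjusted p = 0.0243). Of 18 tested genes of alternative activation, 2 were higher, Il1rn and Tgfbr1, and 4 lower, Clec10a, Mrc1, Klf4 and Tgfbr2. Of 20 tested genes for the uptake of dying cells, 3 were higher, Anxa1, Havcr2 and Itgb5, and 3 lower, Timd4, Gas6 and Colec12. Anxa1, a phospholipid-binding protein, was higher at 331, 342 and 469 CPM against 98.1, 105 and 113 CPM (log2 1.98, edgeR adjusted p = 0.00109).

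Of 20 tested trophic factors and their receptors, 7 were lower and 2 higher. The shares over all genes were 3.26% higher and 2.27% lower, for this list and for those that follow. Areg, Hbegf and Egfr, of the epidermal growth factor family and its receptor, were lower, as were Kitl, the ligand of Kit (log2 -1.32), and Igfbp4 (log2 -2.30). Gdf3, a growth factor of the TGF-beta family, was higher at 317, 14.7 and 72.5 CPM against 47.4, 6.57 and 13.05 CPM, with 31.1% of its UMIs in 1 barcode, and Csf1 was the second. Of 25 early response genes that tissue digestion can induce, 5 were lower (Ier2, Zfp36, Klf2, Klf6 and Egr1) and none higher. Of 16 tested cell cycle genes, Stmn1, Ube2c and H2afz were higher, while Mki67, a proliferation marker, was not called (log2 0.36, edgeR adjusted p = 0.44). Of 21 haem and iron genes, the ferritin chains Fth1 and Ftl1 were higher, and Cd163, Hmox1 and the transferrin receptor Tfrc lower.

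**Figure D4:**
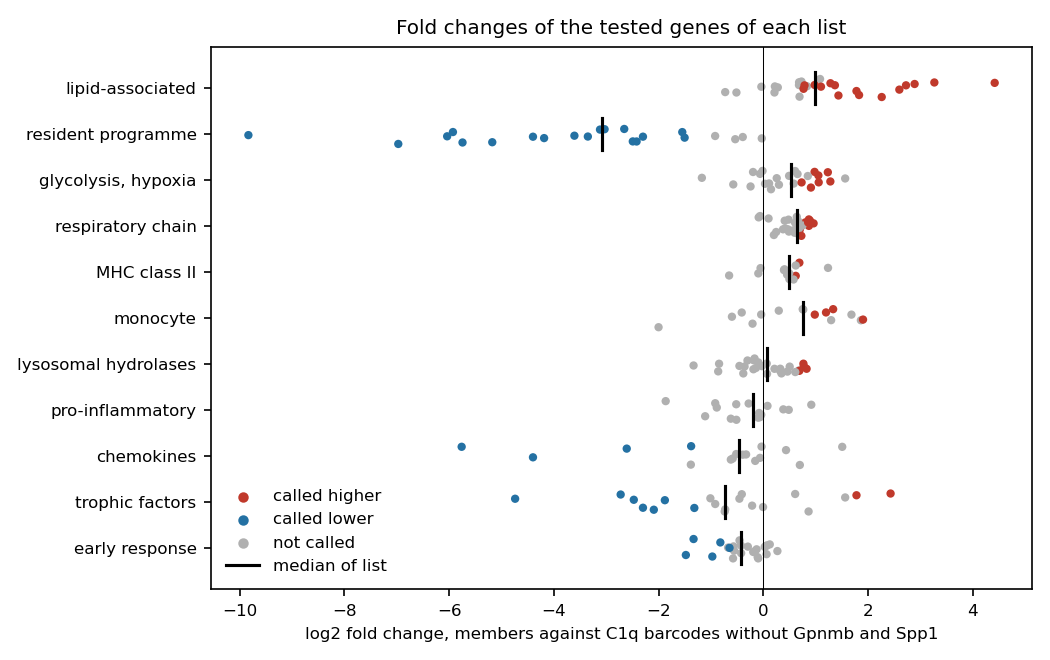
Log2 fold change of members against barcodes without Gpnmb and Spp1 (x axis) for each tested gene of 11 lists, coloured by call, with a black bar at each list's median. The resident list lies around its median of -3.07 and the lipid-associated list around 0.98; values below -8 are fitted for genes with no UMI in members and are no measure of size.

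Of the 70 members, 68 had at least 3 UMIs of the marker lists of other cell types, with a median of 11 UMIs against 7 in the shallower comparison barcodes. Of 12 T or NK genes, 9 had no UMI in members, Trac, Cd3e and Cd3g among them, and the summed list was at 0 to 12.95 CPM against 3.25 to 13.8 CPM. Of fibroblast genes, Col1a1, Col1a2, Col3a1 and Pdgfra were at 0 Dcn was called lower, and the sum was 188 to 303 CPM against 352 to 368 CPM. Of 10 smooth muscle genes only Lmod1 was at 0, and the sum was 32.1 to 78.4 CPM against 59.1 to 231 CPM. All 8 mesothelial genes were at 0. The list of conventional dendritic cells was at 242 to 634 CPM against 309 to 379 CPM, with Clec9a, Xcr1 and Itgae at 0. Of the ILC2 list, Il7r was called higher in members (log2 2.38, edgeR adjusted p = 0.00407), while Gata3, Klrg1, Il5 and Il13 had no UMI in them. The sum of the endothelial list was at 28.5 to 253 CPM against 20.4 to 32.5 CPM and held Fabp4, while Cdh5, Cldn5, Emcn, Plvap and Egfl7 were at 0. The B and plasma cell list was at 103 to 124 CPM against 172 to 463 CPM, with Cd79a and Pax5 at 0, and Ighm, the heavy chain of immunoglobulin M, was lower at 91.8, 86.6 and 95.8 CPM against 159, 252 and 203 CPM (log2 -1.03, edgeR adjusted p = 0.0271). The list of interstitial cells of Cajal was at 1.63 to 23.3 CPM against 78.6 to 108 CPM, with Ano1 at 0, and Etv1, a transcription factor of these cells, was lower (11 UMIs in members, log2 -3.05, edgeR adjusted p = 0.0207, DESeq2 adjusted p = 0.0679). The sum of epithelial genes was lower in members without overlap (4.59 to 10.4 against 18.8 to 76.0 CPM). The sums of mast cell (2.59 to 13.8 against 12.3 to 67.6 CPM), granulocyte (17.98 to 54.4 against 41.3 to 56.1 CPM), migratory dendritic cell (41.4 to 113 against 56.7 to 114 CPM), glia (23.3 to 59.7 against 34.9 to 46.5 CPM), melanocyte (49.2 to 106 against 46.3 to 61.1 CPM) and erythroid genes (0 to 2.59 against 0 to 3.75 CPM) overlapped. Of these 6 lists 5 genes could be tested, and none was called in edgeR or DESeq2 or had an unadjusted p under 0.05. For so few genes that is near the 5.53% called over all genes in edgeR. The part of RNA of other cells in the result was not tested. When barcodes with at least 3 UMIs of defining markers of other cells were left out, replicates 2 and 3 kept enough members. In these 2 libraries 421 genes were then higher and 300 lower, against 424 and 329 with all their C1q barcodes.

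At equal depth, with each barcode thinned to 1000 UMIs, the shares of barcodes with a UMI pointed the same way for the leading genes. Lgals3 was found in 76.5% ± 11.8 of members and 24.9% ± 9.7 of comparison barcodes (SD, n = 3 libraries), and in 7.76% of lymphoid barcodes. Cd9 was found in 41.9% ± 17.2 and 8.17% ± 0.93, against 3.49% of lymphoid barcodes. Trem2 was found in 36.1% ± 13.1 and 11.9% ± 4.3. For these 3 genes each library's share was higher in members.

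Lyve1 was found in 2 of 70 thinned members and in 35.8% ± 6.3 of comparison barcodes, and Timd4 in 0 of 10, 0 of 35 and 0 of 25 thinned members of replicates 1, 2 and 3 and in 6.505% ± 0.556 of the comparison. Without thinning, Lyve1 was found in 14.3% of members and 51.6% of the comparison, Lgals3 in 97.7% and 55.3%, and Cd9 in 81.6% and 25.3%. Cx3cr1, the fractalkine receptor, was found in 27.6% ± 10.8 and 16.9% ± 9.2 of thinned barcodes, ranges that overlap. Fabp5 was too sparse at this depth, with 5 thinned members.

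Within the members, those led by Gpnmb and those led by Spp1 stood apart in the levels of some genes. Only replicate 3 held 10 Gpnmb-led members, the least number that was summed for a fit, so the difference was not tested. Levels are given over all libraries with exact Poisson 95% intervals, which cover counting error only. Depths were alike, with medians of 17114 UMIs in 15 Gpnmb-led and 16286.5 UMIs in 54 Spp1-led members. A size rule was set after values of 12 genes had been seen: at least 20 UMIs over both, at least 3-fold in the sums, the same direction in each of the 3 libraries, and at most 50% of UMIs from 1 barcode. Of 630 list genes, 395 had at least 20 UMIs, and 11 were past the rule towards Gpnmb-led and 12 towards Spp1-led members. Many rest on replicate 3: without it, 5 of the 11 and 3 of the 12 were still at least 3-fold apart. A further 3 of the 12 (Ifit1, Itgb7 and Slc39a14) then had no UMI in Gpnmb-led members and 24, 17 and 23 in Spp1-led members, too few for their depth to show a fold. Without replicate 1 these counts were 8 and 12, and without replicate 2 they were 8 and 10.

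Towards Gpnmb-led members stood, among others, Syngr1, Mmp12, Mmp14, Jun, Ctsl, Hvcn1, Cd300a, Gsr, Hbegf and Csf3r. Without replicate 3, Syngr1 was 8.60-fold, Mmp12 8.60-fold, Hbegf 5.43-fold and Csf3r 4.30-fold higher in Gpnmb-led members, with 9 UMIs of Syngr1 and 6 of Csf3r in them, and Gsr rested on 3 UMIs against 5. Without that replicate Ctsl was at 2.68-fold, Mmp14 at 2.41-fold, Jun at 2.32-fold, Hvcn1 at 2.29-fold and Cd300a at 1.26-fold. Csf3r and Gsr were also under 3-fold without replicate 1 (2.28 and 2.85) and without replicate 2 (2.74 and 2.65), Hbegf without replicate 1 (2.37) and Hvcn1 without replicate 2 (2.70). Mmp12 was at 714 CPM (610 to 831) against 130 CPM (108 to 155), and Ctsl, a lysosomal cathepsin, at 621 CPM (524 to 730) against 176 CPM (150 to 204).

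Syngr1 was at 80.8 CPM (48.6 to 126) against 12.5 CPM (6.45 to 21.8). Jun, a subunit of AP-1, was at 3783 CPM against 643 CPM, and by library at 3486 against 1539, 432 against 376 and 5027 against 544 CPM. Apoe was 6.10-fold higher in the sums, at 27680 CPM against 4535 CPM, yet in replicate 1 it was at 7068 against 7748 CPM and so missed the rule.

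Towards Spp1-led members stood S100a4, Ear2, Mcm6, Itgb7, Mgl2, Ccr2, Cd80, Slc39a14, Ccl12, Ifitm3, Rraga and Ifit1. Without replicate 3, S100a4 was 3.73-fold higher in Spp1-led members and Ear2 and Cd80, each with 1 UMI in Gpnmb-led members, stood at 69 and 56 UMIs. Mcm6 then had 2 UMIs in Gpnmb-led and 51 in Spp1-led members, Mgl2 was at 2.63-fold, Ccl12 at 1.92-fold, Rraga at 1.74-fold, Ccr2 at 1.65-fold and Ifitm3 at 1.43-fold. Without replicate 2, Cd80 and Slc39a14 were under 3-fold, with 3 and 2 UMIs in Gpnmb-led members. S100a4 was at 1377 CPM (1304 to 1453) against 149 CPM (104 to 207) in Gpnmb-led members, and by library at 1298 against 32.0, 1391 against 564 and 1407 against 26.5 CPM. Ccr2 was at 490 CPM (447 to 536) against 119 CPM (79.1 to 172), and by library at 751 against 544, 450 against 188 and 374 against 6.63 CPM. Mgl2, a galactose-binding lectin, was at 726 CPM against 145 CPM.

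Ear2, a ribonuclease of some monocytes and macrophages, had 75 UMIs in Spp1-led and 1 UMI in Gpnmb-led members. Ifitm3, an interferon-induced membrane protein, was at 858 CPM against 255 CPM. Several genes that led the comparison with barcodes without Gpnmb and Spp1 missed the rule, among them Cd9 (842 CPM in Gpnmb-led against 443 CPM in Spp1-led members), Itgax (166 against 107 CPM), Lgals3 (3464 against 1717 CPM), Trem2 (455 against 386 CPM) and Fabp5 (119 against 138 CPM). The 15 Gpnmb-led barcodes are few, and 10 of them came from replicate 3.

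**Figure D5:**
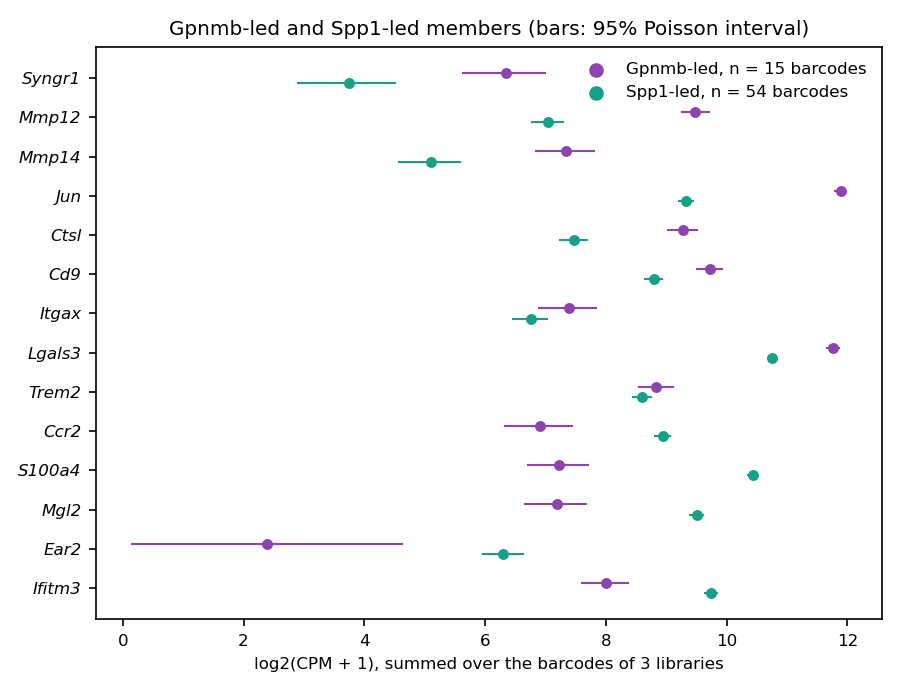
Level of 14 genes, as log2(CPM + 1) on the x axis, summed over 15 Gpnmb-led (purple) and 54 Spp1-led (green) members of 3 libraries, with exact Poisson 95% intervals as bars. Syngr1, Mmp12, Mmp14, Jun and Ctsl lie higher in Gpnmb-led members, Ccr2, S100a4, Mgl2, Ear2 and Ifitm3 in Spp1-led members, and the intervals of Trem2 overlap. Of these 10 genes, Syngr1, Mmp12, S100a4 and Ear2 are at least 3-fold apart without replicate 3 too; the genes were chosen after their values were seen.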

How the data were processed

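Per the labels' protocols, CD45+ cells of digested stomach muscle went through a droplet kit for single cells. For each of the 3 libraries the deposited matrix holds raw UMI counts of 31053 genes by barcodes. The submitters' processing notes name Cell Ranger 3.1 and mm10. The version is 3.0.0 in replicate 1 and 3.1.0 in the other libraries, per the file headers. The handling of reads that fit several genes is not given in the sources used here. Deposited counts sum to 6777422, 13336484 and 11017170 UMIs. No pair of libraries was a copy (chi-square per degree of freedom 40.7 to 106).

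From these counts, barcodes were gated as the report states and summed per library and class, with at least 10 barcodes per sum. Sums were tested with edgeR 4.0.16 (glmQLFit and glmQLFTest, filterByExpr, TMM) in R 4.3.3, with the library as a block because each library gives both classes. A gene was called at an adjusted p under 0.05. Standard errors are the log2 fold change over the root of F. DESeq2 1.42.0 was an alternative. CPM are UMIs per 1000000 UMIs of the sum. Doublets were scored with scrublet in scanpy 1.11.5, with the highest 0.8% per 1000 barcodes marked, and stayed in. On simulated data with the library sizes of this comparison and 7775 genes, 128 of 182 genes changed 4-fold were recovered (70.3%), with 3 false calls. Changed genes that the filter on low counts took out are not among the 182. All libraries were drawn from shared gene means with a fixed dispersion, so differences between libraries were not simulated. These figures therefore do not give the recovery or the false calls in the real data. Promoters came from RefSeq.

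The members, lists and tests were chosen with earlier results of these data known. Named genes were the 12 highest and 12 lowest called genes with at least 20 CPM that moved alike in each library, up to 6 called and 3 uncalled genes of each list, and all key and partner genes. Results are given for each of 41 gene lists. None of 17 interferon genes was called in edgeR (2 at an unadjusted p under 0.05, 0 in DESeq2). For a list this short that is near the 5.53% called over all genes. Of 20 antioxidant genes, 2 were called (Txn1 and Taldo1, higher). The alternatives were other size factors, filters, gates, depths and subsets, and each library left out. Results for a few genes are not reported here.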

Additional observations from a re-analysis of the deposited data

How the results depend on the processing

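Main counts of 255 genes higher and 178 lower in members became, higher and lower, 258 and 126 in DESeq2, 269 and 163 with relative log expression size factors, 400 and 626 with no filter on low counts, 187 and 140 with at least 20 C1q UMIs, 144 and 123 with also at least 5000 UMIs, 363 and 279 with a gate of at least 2 UMIs, 254 and 179 without scored doublets, and 240 and 163 without shared barcodes. With 2 libraries left they were 130 and 138 with a gate of at least 5 UMIs, 663 and 578 with Spp1 alone, 326 and 220 with the stricter cell filter (at least 2000 UMIs, at most 10% mitochondrial), 421 and 300 without barcodes with defining markers of other cells, and 8 and 5 without Timd4, Lyve1 or Folr2 UMIs. Also with at least 20 C1q UMIs and sums of at least 5 barcodes they were 3 and 2. Thinned to 1000 UMIs they were 7 and 21, and with gates on barcodes thinned to 5000 UMIs and sums of at least 5 barcodes 10 and 23. Leaving out a replicate gave 47 to 424 higher and 78 to 329 lower. Leaving out replicate 1, which was also missing from the settings with 2 libraries left, gave 424 and 329. With no replicate block, so without the pairing by library, 25 were higher and 56 lower. The cause of these shifts was not tested, beyond fewer genes or libraries entering.

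The share of members, 3.80%, was 4.66% with the stricter filter, 5.66% and 2.52% with gates of 2 and 5 UMIs, 4.88% with 20 C1q UMIs, 5.91% with also 5000 UMIs, 2.62% when thinned to 5000 UMIs, 5.42% without and 1.62% with 2 or more Timd4, Lyve1 or Folr2 UMIs, and 3.40 to 4.07% without a replicate. Of 100 named called genes, 7 turned in direction without Timd4, Lyve1 or Folr2 UMIs: Hbegf 0.072, Cd74 -0.00054, Mif -0.18, S100a6 -0.037, S100a4 -0.14, Lpl -0.14 and Fabp4 -1.43 (log2), and 74 lost their call. Also with at least 20 C1q UMIs and sums of at least 5 barcodes, 3 turned: Mif -0.020, S100a4 -0.104 and Gdf3 -0.108, and 66 lost their call. Thinned to 1000 UMIs Mif was at -0.38, and in the thinned gates Egr1 was at 0.41. Several settings were chosen after seeing the data: both C1q settings with a further limit, the shared barcodes, the defining markers and the thinned gates with 5 barcodes. Not run, for too few members, were Gpnmb alone, 2 or more Timd4, Lyve1 or Folr2 UMIs, gates thinned to 5000 UMIs with 10 barcodes, leaving out barcodes with 3 or more UMIs of any other cell list (0, 0 and 2 members left), and all fits of Gpnmb-led against Spp1-led members. Members were few and deep, so genes near 1 UMI per barcode are not resolved.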
